A study of Mus musculus with 29 samples.

Results

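The genes described here encode the signalling part of the T cell receptor, the CD8 co-receptor, the kinase that starts the signal and the receptors that tune it. They are the CD3 chains Cd3d, Cd3e and Cd3g, the CD8 chains Cd8a and Cd8b1, the kinase Lck, and the co-stimulatory or inhibitory receptors Cd28, Icos and Ctla4. The members were picked by symbol, through the Ensembl identifiers of the count files, and make up 9 of 25746 genes. Of these, 6 passed a filter on low counts and could be tested with 17031 genes in all (Cd3e, Cd3g, Cd8a, Lck, Cd28 and Icos), whereas Cd3d, Cd8b1 and Ctla4 did not pass. RNA of mouse brain was sequenced in 29 libraries, and each library is called a mouse below. The stroked mice had received a photothrombotic stroke, in which a light-activated dye clots the cortical vessels, and stroked cortex was taken 21 days later.

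Stroked groups were 4 wildtype mice (WT, C57BL/6J), 3 WT mice on tacrolimus from the day of stroke (WT-Tacr acute), 5 WT mice in which tacrolimus started 1 week later (WT-Tacr delayed), 3 Rag2-/- mice and 3 NSG mice. The libraries without stroke were 4 of WT, 3 of Rag2-/- and 4 of NSG mice. Per the study's methods the animals were 3 months of age and of both sexes, and the drug was released from a pump under the skin. Rag2-/- mice cannot rearrange antigen receptor genes and so form no mature T or B cells. NSG mice carry the scid change in Prkdc and lack Il2rg, which also removes natural killer (NK) cells, and they are on a NOD background, so that immune defect and strain background cannot be told apart in any comparison of NSG with WT mice. Tacrolimus inhibits calcineurin, the phosphatase that activates NFAT in stimulated T cells. Both tacrolimus groups were set against untreated non-stroked WT mice. The methods describe the control tissue as the contralesional side whereas other passages speak of naïve animals, so that non-stroked is used below for both readings. The methods also list fewer NSG animals and fewer tacrolimus-treated animals for sequencing than there are libraries of each. Whether stroked and non-stroked libraries share animals is not given in the labels, and all tests treat them as separate.

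On a T cell, the antigen receptor itself has no signalling tail. The CD3 chains and the zeta chain (Cd247) carry tyrosine motifs that Lck phosphorylates, and Lck is brought to the receptor by CD4 or by the CD8 heterodimer of Cd8a and Cd8b1. CD28, bound by CD80 and CD86, gives the second signal that full activation needs, ICOS does so on activated cells, and CTLA-4 competes with CD28 for the same ligands and restrains the response. In the healthy brain T cells are few and lie mainly in the meninges and around vessels. After a stroke they are known to enter the injured tissue.

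The CD3 genes lie next to each other on chromosome 9, with 1354 bases between Cd3g and Cd3d and 11400 bases between Cd3d and Cd3e (GENCODE M21 on GRCm38). Cd3g spans positions 44969572 to 44980431 on the minus strand, Cd3d 44981786 to 44987339 on the plus strand and Cd3e 44998740 to 45009627 on the minus strand. The CD8 genes lie on chromosome 6, Cd8b1 at 71322788 to 71337494 and Cd8a at 71373427 to 71379173. The receptors form a further cluster on chromosome 1, in the order Cd28 (60716800 to 60773359), Ctla4 (60887000 to 60915832) and Icos (60977927 to 61000320), all on the plus strand. Lck is at 129548344 to 129573641 on the minus strand of chromosome 4. Cd3e and Icos overlap a predicted gene on the same strand that is also in the files (Gm48720 and Gm37039), so that reads in the shared part could have been assigned to either.

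RefSeq start sites (GRCm38.p6) were found for 6 of the 9 genes, in 7 windows, and the 250 bases before the start are shown for the CD3 genes, which moved together, for Lck, which has separate distal and proximal promoters, and for Ctla4. Each sequence is written 5′ to 3′ in the direction of its gene. Capitals mark a match on either strand to the NFAT core GGAAAA, the RUNX motif TGTGGT, the ETS form CCGGAA or the TATA box TATAAA.
Cd3g, chr9:44980432-44980681, minus strand: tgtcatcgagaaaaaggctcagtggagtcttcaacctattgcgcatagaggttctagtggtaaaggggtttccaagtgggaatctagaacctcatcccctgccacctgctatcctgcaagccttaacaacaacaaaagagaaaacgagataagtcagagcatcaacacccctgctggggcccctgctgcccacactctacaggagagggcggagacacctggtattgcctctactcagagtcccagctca
Cd3d, chr9:44981536-44981785, plus strand: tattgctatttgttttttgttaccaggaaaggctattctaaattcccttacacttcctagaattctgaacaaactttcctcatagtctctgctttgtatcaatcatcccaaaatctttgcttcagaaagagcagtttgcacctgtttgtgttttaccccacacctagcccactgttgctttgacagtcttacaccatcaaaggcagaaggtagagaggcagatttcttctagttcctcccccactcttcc
Cd3e, chr9:45009612-45009861, minus strand: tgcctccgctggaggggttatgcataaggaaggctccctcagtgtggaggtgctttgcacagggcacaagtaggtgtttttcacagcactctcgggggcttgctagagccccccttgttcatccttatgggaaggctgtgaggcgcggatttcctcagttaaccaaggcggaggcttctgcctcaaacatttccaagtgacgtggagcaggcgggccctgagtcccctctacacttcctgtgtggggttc
Lck, distal, chr4:129573642-129573891, minus strand: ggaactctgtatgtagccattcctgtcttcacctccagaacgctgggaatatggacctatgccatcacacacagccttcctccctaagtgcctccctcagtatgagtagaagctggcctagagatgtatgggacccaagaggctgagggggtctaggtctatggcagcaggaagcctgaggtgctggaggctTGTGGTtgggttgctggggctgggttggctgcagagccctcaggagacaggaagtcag
Lck, proximal, chr4:129558373-129558622, minus strand: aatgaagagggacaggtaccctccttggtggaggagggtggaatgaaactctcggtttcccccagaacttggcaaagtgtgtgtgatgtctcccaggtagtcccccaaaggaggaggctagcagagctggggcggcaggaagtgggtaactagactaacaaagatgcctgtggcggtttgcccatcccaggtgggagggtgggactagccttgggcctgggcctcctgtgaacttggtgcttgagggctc
Ctla4, chr1:60908775-60909024, plus strand: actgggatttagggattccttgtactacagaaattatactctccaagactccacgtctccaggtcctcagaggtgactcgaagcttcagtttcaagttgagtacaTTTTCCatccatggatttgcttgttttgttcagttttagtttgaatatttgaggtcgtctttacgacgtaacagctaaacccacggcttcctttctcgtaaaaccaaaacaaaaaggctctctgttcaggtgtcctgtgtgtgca
None of these 4 strings, including the TATA box, occurred in the CD3 windows or in the window of Cd8a. The shorter ETS core GGAA was not searched for and is present in the CD3 and Lck windows printed above. The distal Lck window held 1 RUNX match and the Ctla4 window 1 NFAT core match. Among 32851 promoter windows of the same length, 20.4% held the NFAT core and 14% the RUNX motif. CCGGAA was held by 12% and the TATA box by 12.4%. A match is a run of letters and not evidence of binding, and its absence says only that the letters are not in this window.

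The sample titles form 2 cohorts, Imm2 with 20 mice and TF with 9. All non-stroked, Rag2-/- and NSG mice are in Imm2, all delayed tacrolimus mice in TF, stroked WT mice are split 2 and 2, and the acute tacrolimus mice are 1 of Imm2 and 2 of TF. Total counts per mouse ran from 17789044 to 43403413, with medians of 37223696 in Imm2 and 23155303 in TF. A floor of 3 counts corresponds to 0.073 to 0.149 CPM (counts relative to library size after TMM scaling). Rag2 itself had 0 counts in 28 of 29 mice and so checks no label, and Il2rg, at 22 to 36 counts in non-stroked NSG and 27 to 32 in non-stroked WT mice, does not tell these groups apart. After stroke Il2rg was at 31 to 37 counts in NSG and 58 to 137 in WT mice. Trbc1, a constant segment of the receptor beta chain, had 0 counts in 7 of 7 NSG mice, but only 0 to 2 in non-stroked WT mice, and so does not check the non-stroked labels. Acute mice 1 and 2 stood apart from the other stroked mice. Their summed astrocyte genes (Gfap, Aqp4, Slc1a3) were at 1010 and 910 CPM and those of the microglia list at 105 and 114 CPM, beside 771 to 923 and 87.5 to 109 CPM in non-stroked WT mice and 1780 to 2140 and 173 to 202 CPM in stroked WT mice. Acute mouse 3 was at 1820 and 204 CPM. A fit without these mice leaves acute mouse 3 alone, with its spread taken from the other groups, so its calls are not given. In that mouse the CD3 genes summed to 0.695 CPM, the CD8 genes to 0.27 CPM and all 9 members to 4.06 CPM, and all means of the acute group given below include mice 1 and 2.

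CD3 transcripts were near or below the floor in all non-stroked libraries and rose in stroked WT mice. Summed over the 3 genes, the level was 0.0618 ± 0.0347 CPM in non-stroked WT mice (SD, n = 4) and 0.809 ± 0.379 CPM in stroked WT mice (n = 4). It was 0.955 ± 0.307 CPM with delayed tacrolimus (n = 5), 0.341 ± 0.317 CPM with acute tacrolimus (n = 3), 0.0379 ± 0.042 CPM in stroked Rag2-/- mice (n = 3) and 0.00824 ± 0.0143 CPM in stroked NSG mice (n = 3). In bulk tissue, more T cells and more RNA per T cell cannot be told apart.

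Cd3e, the chain that pairs with both Cd3d and Cd3g, had 2, 1, 1 and 4 counts in the non-stroked WT mice and 28, 5, 11 and 11 counts in the stroked ones. Scaled to depth, the groups did not overlap (0.0265 to 0.11 against 0.139 to 0.707 CPM). The log2 fold change was 2.84 (SE 0.618, adjusted p = 0.00213, edgeR quasi-likelihood test). For Cd3g, which carries the signal for receptor internalisation, counts were 0, 0, 1 and 0 without stroke and 18, 5, 1 and 9 after it. These pooled counts, 33 against 1, gave a ratio of 36.7 (95% interval 6.14 to 1490, counting error only), and the adjusted p was 0.00886. Stroked WT mouse 3, with 1 count (0.0435 CPM), lay only just above the highest non-stroked mouse at 0.0265 CPM.

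Cd3d, which pairs with Cd3e, was too low to be tested. It had 0 counts in the 4 non-stroked WT mice and 4, 3, 4 and 10 counts after stroke, at least 7.78-fold higher against a floor of 3 counts over the pooled control group. Without the filter its adjusted p was 0.00233. With delayed tacrolimus Cd3d had 6, 8, 8, 4 and 5 counts, at least 12.3-fold higher than in non-stroked WT mice. The delayed group also had 5, 5, 7, 8 and 11 counts of Cd3e and 5, 21, 9, 3 and 12 counts of Cd3g. No delayed mouse overlapped the non-stroked WT mice for any CD3 gene. The share of all genes without overlap was not counted, and 10248 of 17031 genes had an unadjusted p under 0.05 in this comparison. All delayed mice are of TF and these controls of Imm2. Both tested chains were called (Cd3e, log2 fold change 2.38, SE 0.632, adjusted p = 0.00318, and Cd3g, pooled ratio 59.3, interval 10.2 to 2390, adjusted p = 0.000588). With the cohort as a covariate Cd3e was no longer called (2.64, adjusted p = 0.0562), whereas Cd3g was.

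The 13 Rag2-/- and NSG mice give the background of the measurement in tissue that should hold no mature T cell. Over these 13 mice, Cd3d had 0 counts in all, Cd3g 1 count and Cd3e 6 counts, with at most 2 in a mouse. No CD3 or CD8 gene exceeded 3 counts in any of them. A pooled group of 3 stroked NSG mice had a floor of 0.0266 CPM, so that a lower level of Cd3d or Cd3g was not detectable at this depth.

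**Figure D1:**
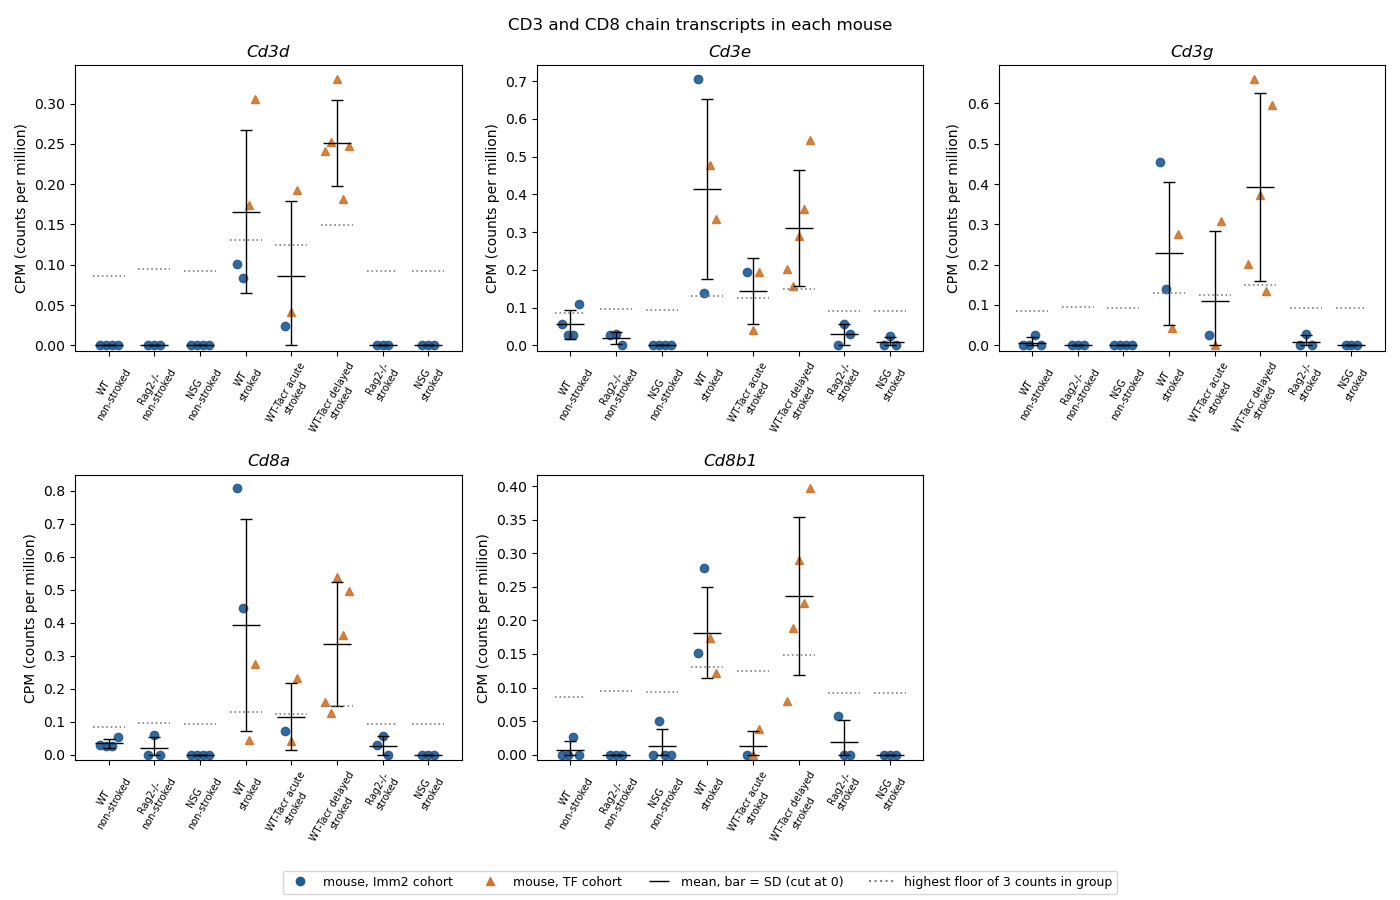
CPM of the CD3 and CD8 genes (y axis) in each mouse of the 8 groups (x axis). Circles are mice of the Imm2 cohort, triangles those of the TF cohort, the black line and bar the mean and SD (cut at 0), and the dotted line the highest value that 3 counts take in that group. Stroked WT and delayed tacrolimus mice rise above the floor for most genes, whereas all 13 Rag2-/- and NSG mice stay below it.

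The CD8 chains followed the same groups. Their summed level was 0.0409 ± 0.0151 CPM in non-stroked WT mice (SD, n = 4), 0.574 ± 0.331 in stroked WT (n = 4), 0.128 ± 0.124 with acute (n = 3) and 0.573 ± 0.293 with delayed tacrolimus (n = 5), 0.0472 ± 0.0436 in stroked Rag2-/- (n = 3) and 0 in stroked NSG mice (n = 3). Cd8a, which binds Lck through its tail, had 1, 1, 1 and 2 counts in non-stroked WT mice and 32, 16, 1 and 9 counts after stroke. Its log2 fold change was 3.45 (SE 0.791, adjusted p = 0.00358). The groups nevertheless overlapped, since stroked WT mouse 3 (0.0435 CPM) lay below the highest non-stroked mouse (0.055 CPM). Under delayed tacrolimus the counts of Cd8a were 4, 4, 13, 8 and 10, all above the non-stroked WT mice (log2 fold change 3.12, SE 0.807, adjusted p = 0.00289).

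Cd8b1, which marks the heterodimer of conventional CD8 T cells, had 6, 10, 4 and 4 counts in stroked WT and 2, 6, 7, 5 and 8 counts in delayed tacrolimus mice, and 1 count in total in the 4 non-stroked WT mice. The pooled ratios were 26.7 (interval 4.35 to 1100) and 33.2 (5.49 to 1360), and the adjusted p without the filter was 0.00419 and 0.00046. Acute tacrolimus mice had 0, 0 and 1 counts of Cd8b1. Like the non-stroked WT mice they were all under the floor, so no order between these groups can be read. Cd8a alone is also carried by type 1 dendritic cells. Xcr1, a defining marker of that cell, had 0 to 3 counts in non-stroked WT, 1 to 4 in stroked WT and 2 to 4 in delayed tacrolimus mice, and its part in the Cd8a counts was not tested.

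Lck behaved differently, in that it was well above the floor in all 29 mice. The 13 Rag2-/- and NSG mice held 674 Lck counts beside 16 counts of the 5 CD3 and CD8 genes together. In non-stroked WT mice Lck was at 0.94, 1.31, 0.849 and 1.02 CPM, and in stroked WT mice at 1.67, 1.31, 1.78 and 1.83 CPM. The lowest stroked mouse and the highest non-stroked mouse were both at 1.31 CPM. The log2 fold change of 0.68 (SE 0.223) had an adjusted p of 0.0272 but did not reach the minimum of 1 and so was not called. In delayed tacrolimus mice Lck lay between 1.61 and 2.33 CPM (log2 fold change 0.84, SE 0.215, adjusted p = 0.00215, not called by fold). Stroked Rag2-/- mice were at 1.55, 1.52 and 1.44 CPM and stroked NSG mice at 1.67, 1.26 and 1.13 CPM, within or near the range of stroked WT mice, with log2 fold changes against their own controls of 0.16 (SE 0.255, adjusted p = 0.783) and -0.26 (SE 0.237, adjusted p = 0.446). Per kilobase of exon, Lck was at 0.562 CPM in stroked WT mice and Cd3e at 0.102. In stroked NSG mice the same values were 0.462 and 0.00202.

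Cd28, the main co-stimulatory receptor, was present in all strains. It was at 0.199, 0.163, 0.133 and 0.192 CPM in non-stroked WT mice and at 0.278, 0.639, 0.782 and 1.19 CPM after stroke, without overlap (log2 fold change 2.04, SE 0.635, adjusted p = 0.0202). Both stroked WT mice of the Imm2 cohort (0.278 and 0.639 CPM) lay below both of the TF cohort (0.782 and 1.19 CPM). Within Imm2 the log2 fold change was 1.40 (adjusted p = 0.15), and with the cohort as a covariate 1.14 (adjusted p = 0.265), so the call did not hold. With delayed tacrolimus Cd28 reached 1.17, 0.85, 1.61, 0.996 and 2.33 CPM (log2 fold change 2.98, SE 0.608, adjusted p = 0.000256). All of these mice are of TF and their controls of Imm2, and within these groups alone the effect of cohort cannot be told apart from that of stroke. With the cohort as a covariate, estimated from the groups that span both, the value was 1.38 (adjusted p = 0.309). Cd28 was at 0.368, 0.456 and 0.286 CPM in non-stroked and 0.688, 0.443 and 0.49 CPM in stroked Rag2-/- mice, all above the non-stroked WT mice. The stroke difference in this strain was 0.54 on the log2 scale (SE 0.685, adjusted p = 0.717).

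Icos, the co-stimulatory receptor of activated and follicular helper T cells, had 1, 5, 3 and 2 counts in non-stroked and 7, 12, 4 and 6 counts in stroked WT mice (0.0285 to 0.136 against 0.174 to 0.333 CPM). The log2 fold change was 1.5 (SE 0.527, adjusted p = 0.037). This call was lost in 6 of the 8 fits that left out 1 mouse of the comparison, with an adjusted p of up to 0.114 without non-stroked mouse 1 or stroked mouse 2. Within Imm2 the value was 1.71 (adjusted p = 0.132). Delayed tacrolimus mice had 6, 11, 8, 9 and 7 counts (log2 fold change 2.10, SE 0.497, adjusted p = 0.00107). Icos was also counted in mice without T cells. Non-stroked Rag2-/- mice were at 0.198, 0.213 and 0.191 CPM and stroked ones at 0.143, 0.0277 and 0.0919 CPM, lower without overlap but not past the test (log2 fold change -1.17, SE 0.607, adjusted p = 0.267).

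Ctla4, the inhibitory receptor, had 3, 5, 3 and 8 counts in non-stroked WT, 5, 9, 4 and 3 in stroked WT and 3, 6, 6, 1 and 4 in delayed tacrolimus mice. These groups overlapped, and without the filter the adjusted p was 0.828 for stroked WT and 0.751 for delayed tacrolimus. The highest levels were in non-stroked NSG mice, with 9, 19, 7 and 13 counts (0.198 to 0.482 CPM). Against non-stroked WT mice the log2 fold change was 1.35 (adjusted p = 0.187 without the filter).

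**Figure D2:**
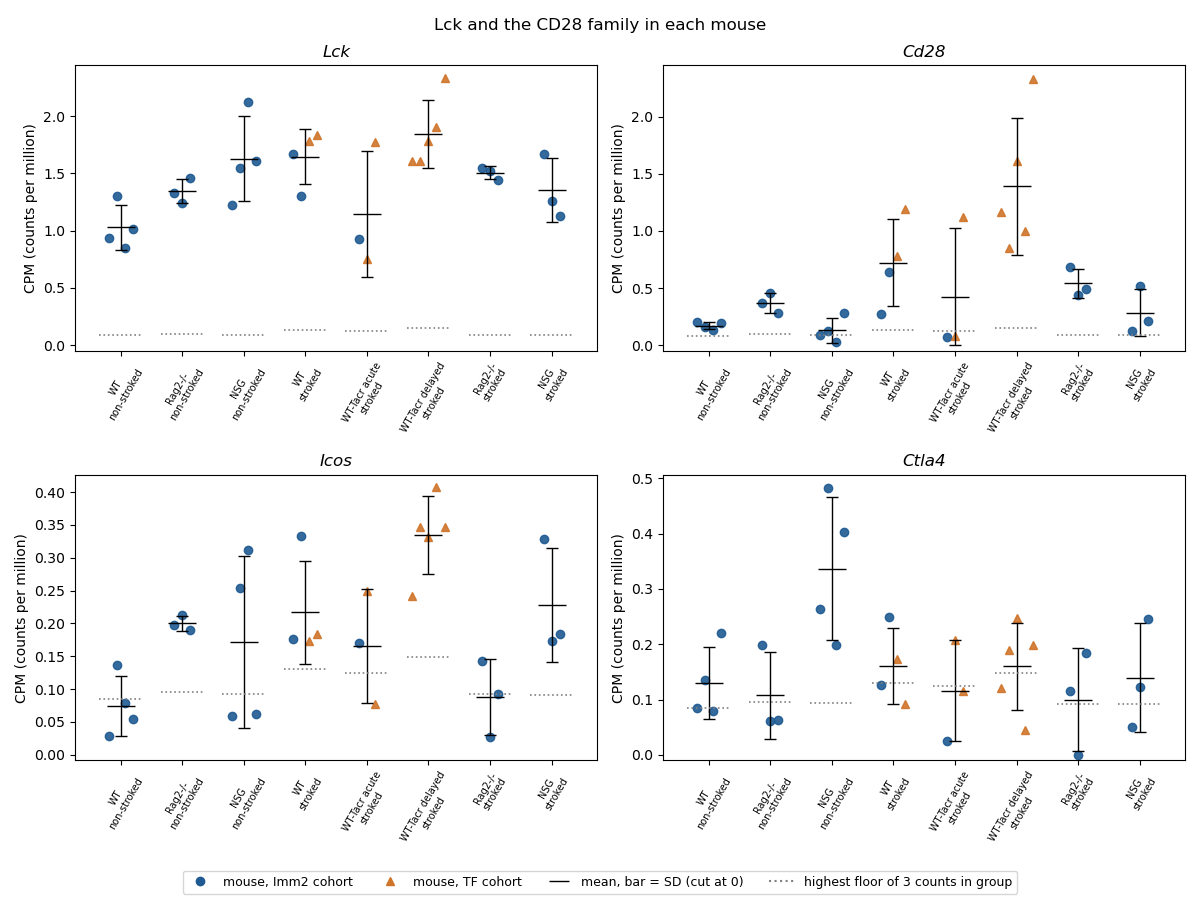
CPM of Lck, Cd28, Icos and Ctla4 (y axis) in each mouse of the 8 groups (x axis), with symbols as in the plot of CD3 and CD8 genes. Lck exceeds the floor in all 29 mice, Cd28 reaches 2.33 CPM in a delayed tacrolimus mouse, and for Ctla4 the stroked mice of each strain overlap the non-stroked ones.

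The comparison of stroke with no stroke asks which groups gain these transcripts. A gene was called at a Benjamini-Hochberg adjusted p below 0.05 over all genes tested and an absolute log2 fold change above 1. In WT mice 5 of the 6 tested members were called, all higher (Lck was not), beside 7.3% of all genes tested. In delayed tacrolimus mice the same 5 members were called, beside 15.5% of all genes. Cd3e, Cd3g and Cd8a passed the filter only through stroked WT and tacrolimus-treated mice, in which they are high. Icos reached the filter's cutoff in 7 libraries, 4 of delayed tacrolimus and 1 of stroked WT mice. The others were 1 non-stroked and 1 stroked NSG library, and members at the cutoff in only 2 libraries did not pass. Icos thus also depended on groups in which it is high, so the count of members called is a description and not support. The median log2 fold change of the 6 tested members was 2.44 in WT and 2.68 in delayed tacrolimus mice, beside 0 over all genes in both. Both comparisons share the same non-stroked WT mice. Without the filter, Cd3d and Cd8b1 were called as well in each. The shares above are those of the filtered genes.

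In stroked Rag2-/- and NSG mice, 0 of 6 tested members were called against non-stroked mice of the same strain, beside 4.33% and 5.48% of all genes. By edgeR no member had an unadjusted p under 0.05 in either strain (0 of 6 in both), and DESeq2 called 0 as well. For Cd3g and Cd8a in NSG mice this outcome was fixed, since both groups had 0 counts. Cd3e in NSG and Cd3g in Rag2-/- mice had 1 pooled count against 0 and could show little. The difference of the stroke response between strains was tested as an interaction. For Rag2-/- against WT, 0 members were called beside 0% of all genes, 1 of 6 having an unadjusted p under 0.05 (Icos, difference -2.67, SE 0.804, adjusted p = 0.95). For NSG against WT, 0 were called beside 0.0117% of all genes, again with 1 under 0.05 (Lck, difference -0.94, SE 0.326, adjusted p = 0.254). DESeq2 called 0 members in both interactions. Cd3g and Cd8a had 0 counts in all NSG mice, so that their interaction carries no fold. The same holds for Cd3e in NSG and Cd3g in Rag2-/- mice, which had 0 counts in the non-stroked group.

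**Figure D3:**
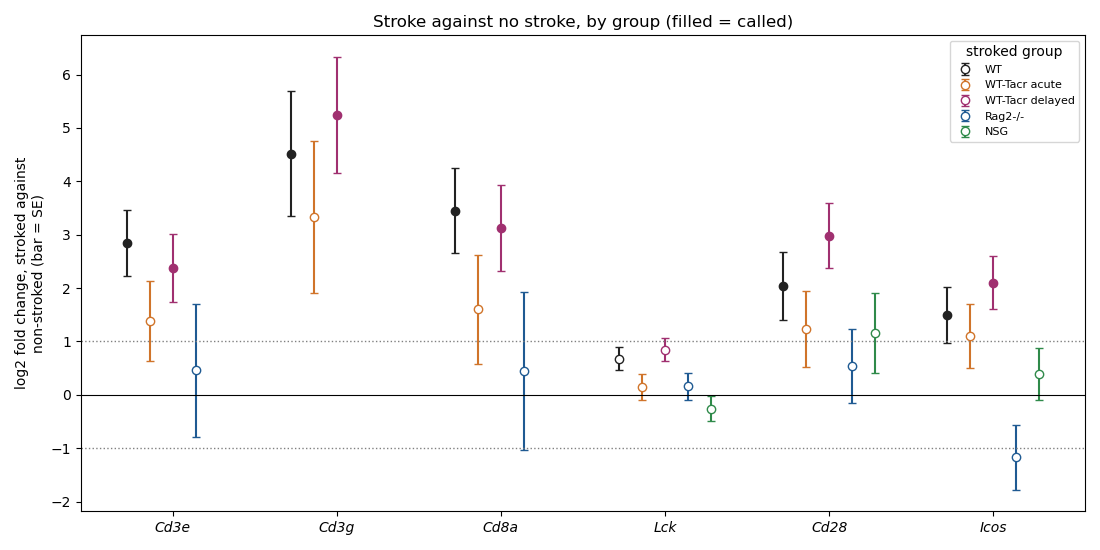
Log2 fold change (y axis, bar = SE) of the 6 tested members (x axis) between stroked and non-stroked mice, for each of 5 stroked groups. Filled circles were called, dotted lines mark the minimum of 1 in either direction, and changes against a group with 0 counts are not drawn. WT and delayed tacrolimus mice are filled for all members but Lck, and no member is filled for acute tacrolimus, Rag2-/- or NSG mice.

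Among non-stroked libraries no member passed the test between strains. Non-stroked Rag2-/- and WT mice had 0 of 6 members called beside 0.00587% of all genes, with 1 member at an unadjusted p under 0.05 (Icos, log2 fold change 1.37, SE 0.567, adjusted p = 1). Icos and Cd28 (1.09, SE 0.709, adjusted p = 1) were higher in Rag2-/- mice without overlap. Non-stroked NSG mice had 0 called against WT, beside 3.36% of all genes, with 3 members under 0.05 unadjusted. Cd3e, at 0 counts in 4 NSG mice and 8 pooled counts in 4 WT mice, was lower without overlap (adjusted p = 0.0614), and Lck had a log2 fold change of 0.66 (SE 0.222, adjusted p = 0.0595). Between non-stroked NSG and Rag2-/- mice 0 members were called beside 2.8% of all genes, and 0 had an unadjusted p under 0.05. Ctla4 was nevertheless higher in NSG mice without overlap (1.59, adjusted p = 0.217 without the filter), but only just. The lowest NSG mouse (0.1984 CPM) and the highest Rag2-/- mouse (0.1982 CPM) both had 7 counts. Cd28 was lower in NSG mice without overlap (-1.5, SE 0.74, adjusted p = 0.283). DESeq2 called 0 members in these 3 comparisons too.

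After injury CD3 and CD8 transcripts were lower in NSG than in WT mice. Compared with stroked WT mice, stroked NSG mice had 3 of 6 tested members called, all lower, beside 3.26% of all genes. These 3 passed the filter only through stroked WT and tacrolimus-treated mice, so the count is again a description. Cd3e had 1 count in 3 NSG mice and 55 in 4 WT mice, a pooled ratio of 0.0212 (interval 0.000527 to 0.123, adjusted p = 0.000564). Cd3g was at least 9.44-fold lower (adjusted p = 0.0157) and Cd8a at least 16.6-fold lower (adjusted p = 0.00163), both with 0 counts in NSG mice. Among the members not tested, Cd3d was at least 6.01-fold and Cd8b1 at least 6.86-fold lower, with an adjusted p of 0.0086 and 0.00581 without the filter. Lck (log2 fold change -0.28, SE 0.238, adjusted p = 0.477), Cd28 (-1.29, SE 0.651, adjusted p = 0.19) and Icos (0.07, SE 0.486, adjusted p = 0.947) were not called.

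Stroked Rag2-/- mice had similarly low counts but no call. Cd3e had 0, 2 and 1 counts, a pooled ratio to stroked WT of 0.0692 (interval 0.0138 to 0.213). The fitted log2 fold change was -3.68 (SE 0.773), with an adjusted p of 0.345, and the groups did not overlap. Cd8a had 1, 2 and 0 counts (ratio 0.0656, interval 0.0131 to 0.201, adjusted p = 0.707). For Cd3g the count was 1 over the 3 mice (ratio 0.0384, interval 0.000945 to 0.23, adjusted p = 0.707). Cd3d had 0 counts, at least 5.52-fold lower. Icos was lower as well, without overlap (-1.29, SE 0.57, adjusted p = 0.707). In this comparison 0 of 6 members were called beside 0.00587% of all genes, 4 of 6 (Cd3e, Cd3g, Cd8a and Icos) had an unadjusted p under 0.05, and DESeq2 called 0. A p that misses the threshold here does not show that Rag2-/- mice carried as much CD3 transcript as WT mice.

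Tacrolimus mice were compared with stroked WT mice directly. With delayed treatment 0 of 6 members were called beside 0% of all genes, 0 had an unadjusted p under 0.05, and DESeq2 called 0. The log2 differences ran from -0.46 for Cd3e (SE 0.486, interval -1.47 to 0.56) to 0.94 for Cd28 (SE 0.524, interval -0.15 to 2.04). With acute treatment 0 were called beside 0% of all genes, 3 of 6 had an unadjusted p under 0.05 and DESeq2 called 0. These were Cd3e (-1.45, SE 0.603, adjusted p = 0.335), Cd8a (-1.84, SE 0.756, adjusted p = 0.333) and Lck (-0.52, SE 0.245, adjusted p = 0.378). Against non-stroked WT mice, the acute group had 0 members called beside 2.58% of all genes, 1 under 0.05 unadjusted (Cd3g, adjusted p = 0.138) and 0 by DESeq2, whereas without the filter Cd3d was called (1, 1 and 5 counts, adjusted p = 0.0458).

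The acute mice were uneven in these genes. Acute mice 1, 2 and 3 had 10, 2 and 18 counts of the CD3 genes and 3, 1 and 7 counts of the CD8 genes. Cd28 was at 0.073, 0.0833 and 1.12 CPM, so that mouse 3 lay within the stroked WT range and the other two below every non-stroked WT mouse. The summed NK cell genes of these mice were 0.292, 0.333 and 7.15 CPM, of which Eomes alone was 0.195, 0.0832 and 6.3 CPM. The NK genes without Eomes were at 0.0974, 0.25 and 0.85 CPM, and those of meningeal fibroblasts 98.9, 62 and 266 CPM, so mouse 3 was also the highest for both lists and for the astrocyte and microglia lists. The part of these tissue differences in the T cell transcripts was not tested. Without mouse 3, Cd28 and Cd8b1 were called lower than in stroked WT mice. The share of all genes called in that fit is not given.

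Delayed compared with acute tacrolimus gave 1 of 6 members called, Cd28 (log2 fold change 1.75, interval 0.45 to 3.05, adjusted p = 0.0482), beside 5.75% of all genes. Lck was higher by 0.68 (SE 0.238, adjusted p = 0.0435), below the minimum fold. The Cd28 call was not kept without the filter (adjusted p = 0.0574) or within the TF cohort (1.19, adjusted p = 0.295). Nor was it kept without acute mouse 1 (1.17, adjusted p = 0.277) or acute mouse 2 (1.29, adjusted p = 0.216). When acute mouse 3 was left out, the call took in 5 members (Cd28, Cd3d, Cd3g, Cd8b1 and Lck). The share of all genes called in that fit is not given. Its acute group was mice 1 and 2, which stood apart in astrocyte and microglia genes. Cd8b1, with 28 pooled counts against 1, had a ratio of 20.7 (interval 3.42 to 847) and an adjusted p of 0.0162 without the filter.

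Further T cell genes were uneven as T cell markers in this tissue. Of 9 listed (Trac, Trbc1, Trbc2, Trdc, Cd247, Cd4, Cd2, Cd5 and Cd6), all tested, 3 rose in stroked WT mice. These were Trbc1 (log2 fold change 2.88, SE 0.799, adjusted p = 0.012), the adhesion receptor Cd2 (2.78, SE 0.825, adjusted p = 0.0154) and the zeta chain gene Cd247 (1.55, SE 0.548, adjusted p = 0.038). The list's median was 1.05, beside 0 over all genes. Of all genes tested, 7.3% were called in stroked WT mice, 2.58% with acute and 15.5% with delayed tacrolimus. The share was 4.33% in Rag2-/- and 5.48% in NSG mice, and these shares apply to the counts of all lists below. In delayed tacrolimus mice 5 rose and Cd6 fell, with acute tacrolimus and in NSG mice 0 were called, and in Rag2-/- mice Cd6 fell. The next genes were chosen after their values were seen. Trbc2 had 85 to 503 counts in the NSG mice and 98 to 332 in stroked WT mice, and Trac 14 to 32 counts in NSG and 19 to 45 in stroked WT mice. Cd4, which microglia and macrophages can also express, had 52 to 1149 counts in NSG mice.

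Downstream of the receptor, 25 of 28 listed signalling genes were tested, and 5 rose in stroked WT mice with 0 lower. The 3 with the smallest p were Vav1, a guanine nucleotide exchange factor (log2 fold change 1.53, SE 0.203, adjusted p = 2.31e-05), Ptprc, the CD45 phosphatase of all leukocytes (2.34, SE 0.361, adjusted p = 7.57e-05), and Rhoh, a small GTPase of blood cells (1.80, SE 0.315, adjusted p = 0.000226). The list rose by 2 genes with acute and 8 with delayed tacrolimus, and by 3 in Rag2-/- and 6 in NSG mice. Its median log2 fold change was 0.21 in WT, 0.38 in delayed tacrolimus, 0.12 in Rag2-/- and -0.01 in NSG animals. Vav1 and Ptprc were called in all 5 stroked groups, those without T cells included (in NSG mice 1.43, adjusted p = 8.95e-05, and 1.74, adjusted p = 0.00201).

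Among other co-stimulatory and inhibitory receptors, 11 of 16 were tested and 6 rose in stroked WT mice with 0 lower. Vsir, the inhibitory receptor VISTA, which myeloid cells carry, rose from 28.2 to 61.9 CPM (log2 fold change 1.14, SE 0.126, adjusted p = 5e-06). Havcr2, the inhibitory receptor TIM-3, also found on microglia, rose by 1.66 (SE 0.195, adjusted p = 7.43e-06), and Lag3, an inhibitory receptor for MHC class II, by 2.07 (SE 0.262, adjusted p = 1.68e-05). Havcr2 and Lag3 were called in all 5 stroked groups. With acute tacrolimus 2 rose, with delayed tacrolimus 8 rose and Cd6 fell, in Rag2-/- mice 2 rose and Cd6 fell, and in NSG mice 4 rose. The list's median in WT mice was 1.19.

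The ligands of these receptors, which lie on antigen presenting cells, were measured for 10 of 13 genes. In stroked WT mice 5 rose and 0 fell. Icosl, the ligand of ICOS, rose from 3.54 to 8.76 CPM (log2 fold change 1.31, SE 0.197, adjusted p = 6.09e-05), Cd86, a ligand of CD28 and CTLA-4, from 1.53 to 4.84 CPM (1.66, SE 0.262, adjusted p = 9.18e-05), and Lgals9, a ligand of TIM-3, by 1.35 (SE 0.229, adjusted p = 0.000162). Cd86 was called in all 5 stroked groups, and so was Cd80, the other ligand of CD28, singled out after its values were seen. For Cd80 the log2 fold change was 2.44 in WT, 1.86 with acute and 3.25 with delayed tacrolimus, 2.12 in Rag2-/- and 2.50 in NSG mice. The list had 3 genes called with acute and 7 with delayed tacrolimus, 5 in Rag2-/- and 4 in NSG mice, with a median of 1.08 in WT and 1.28 in Rag2-/- mice, and of 0.82 in the NSG strain.

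NK cells share many genes with CD8 T cells. Of 8 listed NK genes, 5 were tested and all 5 rose in stroked WT and in delayed tacrolimus mice, with 1 called with acute tacrolimus, 2 in Rag2-/- and 0 in NSG mice. The summed list was at 1.78 to 15.9 CPM in stroked WT, 1.13 to 1.95 in stroked Rag2-/- and 0.304 to 0.673 CPM in stroked NSG mice, although a non-stroked NSG mouse reached 8.96 CPM, of which Eomes was 8.93 CPM. Without Eomes, a leaving-out chosen after its values were seen, the list was at 0.757 to 1.31 CPM in stroked WT and 1.09 to 3.92 CPM in delayed tacrolimus mice. It was at 0.693 to 1.06 in stroked Rag2-/-, 0.184 to 0.272 in stroked NSG and at most 0.254 CPM in non-stroked mice. Eomes, a transcription factor of NK and CD8 T cells that these values do not tie to NK cells, contributed a mean of 5.96 CPM in stroked WT mice (log2 fold change 3.74, SE 1.14, adjusted p = 0.0173). The smallest p values in stroked WT mice were those of the granule gene Nkg7 (2 to 13 counts against 0 in all non-stroked WT mice, adjusted p = 0.000827), the receptor Klrd1 (2 to 10 counts against 0, adjusted p = 0.00092) and the receptor Klrk1 (3.17, SE 0.836, adjusted p = 0.00901). Ncr1, which mature T cells as a rule lack, had 1 count in each stroked WT mouse, 0 to 1 with acute and 0 to 8 with delayed tacrolimus. It had 1 to 2 counts in stroked Rag2-/- and 0 in all NSG mice. The part of NK cells in the Cd3 and Cd8a counts of WT and tacrolimus-treated mice was not tested.

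**Figure D4:**
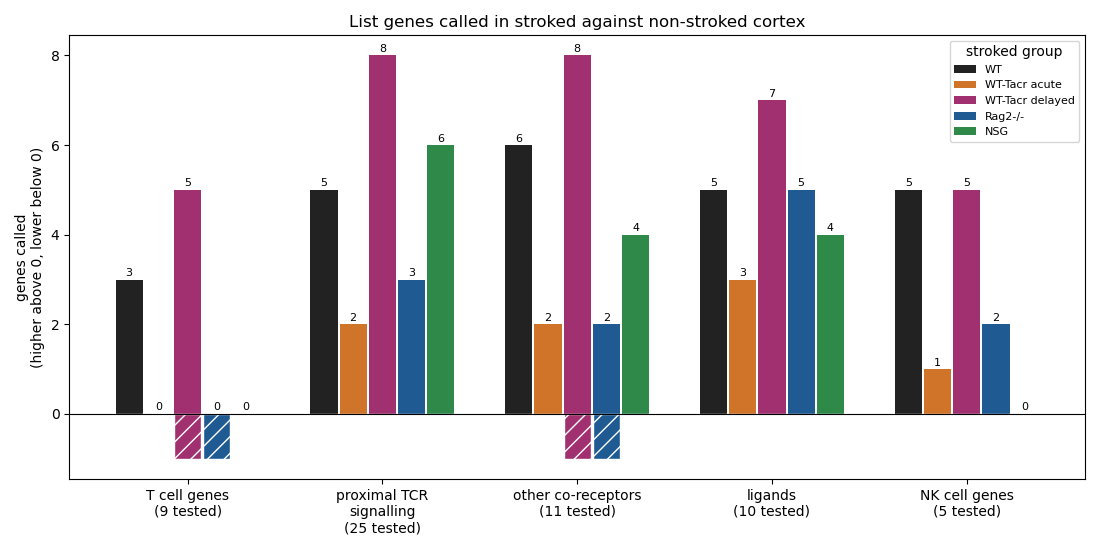
Number of genes called higher (above 0, printed over each bar) or lower (hatched, below 0) in stroked against non-stroked mice (y axis) for 5 lists of related genes (x axis, with the number tested) and 5 stroked groups. Ligand genes are called in all groups, 5 in Rag2-/- and 4 in NSG mice included, and of the T cell genes 3 are called higher in WT and 5 in delayed tacrolimus mice. The difference from the WT response was tested for Rag2-/- and NSG mice and had 0 of 9 T cell genes called in both.

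Lists of other cell types had the following values. B cell genes had 0 called in stroked WT mice (3 of 5 tested) and 1, Cd79b, in delayed tacrolimus mice. Regulatory T cell genes had 0 of 3 called in WT and 1, Il2ra, in delayed tacrolimus mice, and Foxp3 had 4 to 22 counts in the NSG mice beside 7 to 12 in stroked WT mice. Of 2 tested type 1 dendritic cell genes, Batf3 was called in WT (1.47, SE 0.347, adjusted p = 0.0034). In stroked WT mice 3 of 5 microglia, 1 of 3 astrocyte, 3 of 4 meningeal fibroblast and 0 of 5 choroid plexus, 0 of 5 red blood cell, 0 of 3 neuron and 0 of 3 oligodendrocyte genes were called. The choroid plexus genes ran from 3.87 to 1570 CPM over single mice. Meningeal fibroblast genes summed to 82.8 to 147 CPM in non-stroked WT, 232 to 402 in stroked WT and 350 to 921 CPM in delayed tacrolimus mice. In stroked Rag2-/- mice they summed to 254 to 451 CPM and in stroked NSG mice to 255 to 812 CPM. They were thus high in the groups in which the CD3 and CD8 genes were high and in both stroked groups without T cells. Their part in the CD3 and CD8 values was not tested.

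Across the 29 mice the CD3 and CD8 genes ordered the samples alike, with Spearman's rho from 0.65 (Cd3e and Cd8b1) to 0.88 (Cd3d and Cd3g), whereas Lck had 0.34 to 0.59 with them and Ctla4 -0.18 to 0.11. The points share libraries and depth, and many are tied at 0 counts. Summed over the 9 members, the level was 1.51 ± 0.258 CPM in non-stroked WT (SD, n = 4), 4.13 ± 0.486 in stroked WT (n = 4), 2.33 ± 1.5 with acute (n = 3) and 5.26 ± 1.41 with delayed tacrolimus (n = 5), 2.32 ± 0.234 in stroked Rag2-/- (n = 3) and 2.02 ± 0.213 in stroked NSG mice (n = 3). Lck made up a median of 61.3% and Cd28 of 17.3% of this sum. Of 17025 other genes, the 10 whose log2 CPM was ordered most like it were Il2rb, the beta chain of the receptors for interleukin 2 and 15 (rho 0.876), the ectonucleotidase gene Entpd1 (0.853), Usp18 (0.847), Treml2 (0.845), the pore-forming gasdermin gene Gsdmd (0.838), Tshr (0.837), Shisa3 (0.834), Cmtm7 (0.833), the proton channel gene Hvcn1 (0.833) and the collagen gene Col6a1 (0.832). These values describe an ordering over 29 libraries that include stroked and non-stroked tissue.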

How the data were processed

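RNA of mouse brain was sequenced in 29 libraries of 8 groups (stranded, polyA-selected libraries per the study's methods), with 1 raw count file each. The values are raw counts per Ensembl gene that the authors deposited after alignment and counting at a core facility. The aligner, its version, the genome build and the strand setting are not given in the sources used here. All files held 25746 genes, of which 25635 had a symbol, and no pair of samples was identical. In 2 cases the sample title and the file name differ in number, and the sample was taken from the record. Groups follow the genotype and treatment labels and titles. The labels do not say which libraries are separate animals, and with contralesional controls stroked and non-stroked libraries could share animals, so p-values measure the spread between these libraries only.

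Counts were analysed with edgeR 4.0.16 in R 4.3.3 (limma 3.58.1), with TMM normalization and filterByExpr by group, in 1 quasi-likelihood fit of all 8 groups (21 residual degrees of freedom, 17031 genes tested). A gene was called at a Benjamini-Hochberg adjusted p below 0.05, over all genes tested, and an absolute log2 fold change above 1. All adjusted p-values in the text come from this quasi-likelihood test unless DESeq2 (1.42.0) is named. Values said to be without the filter come from a fit to the 22092 genes with a count in any mouse. Pooled ratios have exact 95% intervals, and these intervals and the floor of 3 counts cover counting error only. On simulated counts (16758 genes, the WT comparison) 199 of 200 changed genes were recovered with 5 false calls. The changed genes were drawn only from those with a mean above 1 CPM. All members but Lck lie below that, so the recovery does not apply to them. The 9 members and all gene lists were chosen with earlier results of these data known. Named genes were all members, at most 3 genes per list called in stroked WT mice with the smallest p, and the 10 genes ordered most like the summed members, apart from those said to be chosen after their values were seen. Alternatives were another normalization, no filter, the cohort as covariate, fits to a cohort or to the compared groups only, DESeq2, no minimum fold, the replicate block and leaving out each mouse. The fit within the TF cohort, the fit without acute mice 1 and 2 and the NK list without Eomes were chosen after seeing the data.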

Additional observations from a re-analysis of the deposited data

Results flagged for a closer look

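Icos in stroked WT mouse 2 stood apart from its group. It was at 0.333 CPM (12 counts), whereas the other 3 stroked WT mice were at 0.174 to 0.183 CPM, and the gap made up 0.941 of the range of the 4 mice, above Dixon's 95% critical value for 4 samples. Of 27 sets of values examined in this way, this was the 1 that passed, and chance alone passes about 1 set in 20. Without this mouse the Icos change in stroked WT mice was 1.2 on the log2 scale and was not called (adjusted p = 0.114, edgeR quasi-likelihood test).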

How the results depend on the processing

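Counts of members called were compared with those in the report by comparison and setting. In stroked against non-stroked WT mice (5 in the report), 3 were called with the cohort as covariate, 3 within Imm2 and 1 when the fit held only the groups compared, in which only Cd28 and Lck passed the filter. With delayed tacrolimus (5), 3 were called with the cohort as covariate (Cd3e and Cd28 being lost) and 2 in the fit of the groups compared. With acute tacrolimus (0), 1 was called without the filter. In stroked NSG against WT mice (3 in the report), 5 were called without the filter and 1 in the fit of the groups compared. In delayed against acute tacrolimus (1), 0 were called with the cohort as covariate, in the fit of the groups compared or within TF. With no minimum fold 2 were called.

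When each mouse was left out in turn, stroked WT mice had 3 to 5 members called (3 without non-stroked WT mouse 4 or stroked WT mouse 4, Cd28 and Icos being lost), delayed tacrolimus mice 5 to 5, acute tacrolimus mice 0 to 1, stroked NSG against WT mice 3 to 5, acute tacrolimus against stroked WT mice 0 to 2, and delayed against acute tacrolimus 0 to 5. The other 9 comparisons gave 0 to 0. The shares of all genes called in these fits are not given. Over all settings other than a left-out mouse, 95 of 109 counts stayed within 1.5 times the reported one, with 0 against 0 taken as unchanged. Most comparisons had 0 members called in the report, so this share does not measure stability. Of 93 single changes, 79 kept their direction and call, 13 were no longer called, 1 became called (Lck) and 0 reversed. The causes were not tested.

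Non-stroked strains share replicate numbers. With the replicate block 0 members were called in the 3 comparisons, as without it. Same-numbered non-stroked mice of different strains did not deviate together (r from -0.258 to 0.108). With 2 or 3 pairs per comparison this cannot exclude a pairing. Stroked and non-stroked libraries were not compared in this way. Depth limits Cd3d, Cd8b1 and Ctla4, which reached the filter's cutoff in 2 libraries each, and 3 counts correspond to 0.073 to 0.149 CPM in a mouse.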
